A study of Mus musculus with 18 samples.

Results

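Fatty acids enter fat cells through a small set of membrane and binding proteins, and 9 genes of that set were examined here: Cd36, the fatty acid transport proteins Slc27a1, Slc27a2, Slc27a3, Slc27a4 and Slc27a5, and the fatty acid binding proteins Fabp3, Fabp4 and Fabp5. They were chosen by gene name, with earlier results of these data known. The arrays carry 16 probes for them out of 41174, and 14 of the 16 probes, for 8 of the 9 genes, were bright enough to be used: their spots stood well above background in every replicate of some group. Those 8 are among 19217 genes that were tested.

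The RNA came from young adult male C57BL/6 mice, and all 18 samples are labelled with that strain, sex and stage, with no genetic change or drug named for any group. Interscapular brown, inguinal and epididymal fat were each digested with collagenase. The floating adipocytes were taken from the top, and the pellet, after lysis of red cells, was the stromal-vascular fraction (SVF), which holds vessel cells, immune cells and preadipocytes. Depot and fraction give 6 groups of 3 samples, described as biological triplicates. The labels do not say whether a sample pools several mice. The fractions are enriched, not pure, and in such bulk samples fewer cells of a type and less RNA per cell cannot be told apart.

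CD36 is a membrane glycoprotein that binds long-chain fatty acids and is made by adipocytes, capillary endothelial cells and macrophages. The Slc27a genes encode the FATP proteins, which carry acyl-CoA synthetase activity and trap the fatty acid they help to take up as its CoA ester. The FABPs are small cytosolic carriers. FABP4 is the abundant form of adipocytes, FABP5 is the epidermal form that is also made by macrophages, and FABP3 is the form of heart, oxidative muscle and brown fat.

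A level in the following is log2 of the processed signal minus log2 of the 75th percentile of the same array. Levels of different probes cannot be set against each other, so isoforms are contrasted by how each differs between groups. A difference is given as log2 ± standard error of the fit, with 3 arrays per group. "Rose" and "fell" mean an adjusted p under 0.05 in limma's moderated test, adjusted by Benjamini-Hochberg over all 19217 genes.

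The 75th percentile signal ran from 337.7 to 1259.4 over the arrays, no spot was saturated, and from 49.6% to 72.3% of spots were well above background, apart from 87.9% in epididymal adipocyte replicate 1. All 6 adipocyte marker genes were well above background on every adipocyte array, with a mean level from 5.30 to 6.99. The same mean was 4.35 in brown SVF replicate 2, against at most 2.51 on the other SVF arrays. Epididymal adipocyte replicate 3 had a brown adipocyte marker mean of 2.27, against -1.80 and -1.87 in the other epididymal adipocyte samples, and its Ucp1 level was 4.51 against -3.34 and -1.05. Inguinal SVF replicate 1 had a mesothelial marker mean of 3.99, against -5.87 and -5.94 in the other inguinal SVF samples. The same library goes against its male label: Ddx3y, a Y-linked gene, was at -6.50 and not well above background there, and well above background on the other 17 arrays, at 0.18 to 1.65. Calls made or lost by leaving out these 3 libraries are given beside the results. The inguinal and epididymal adipocyte arrays were read with Feature Extraction 9.5 and all others with version 10.5, so software, scan day and the white adipocyte groups cannot be told apart.

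The isoforms were read by different sequences, which the following probes show. The Slc27a2 probe that gave its values lies at chr2:126279255-126279314 on the plus strand (build mm8), and the Slc27a4 probe at chr2:29637604-29637663 on the plus strand. In their best ungapped alignment 26 of 44 overlapping bases are identical, and capitals mark those bases. Over all pairs of probes of different members the longest shared run was 10 bases.
Slc27a2: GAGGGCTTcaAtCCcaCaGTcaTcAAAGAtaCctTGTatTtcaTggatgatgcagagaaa
Slc27a4: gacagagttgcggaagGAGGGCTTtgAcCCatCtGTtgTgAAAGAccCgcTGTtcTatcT

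Both Fabp4 probes below are shown because they gave different answers in white fat. The first, whose values stand for the gene, has coordinates chr3:10187065-10187794 on the minus strand (mm8), a span of 730 bases for a probe of 60, so it crosses an exon junction. The second lies at chr3:10190974-10191033, also on the minus strand, within 1 block.
Fabp4, first probe: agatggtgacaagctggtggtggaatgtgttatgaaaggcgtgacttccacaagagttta
Fabp4, second probe: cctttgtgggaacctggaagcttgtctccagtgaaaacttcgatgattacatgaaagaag

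**Figure D1:**
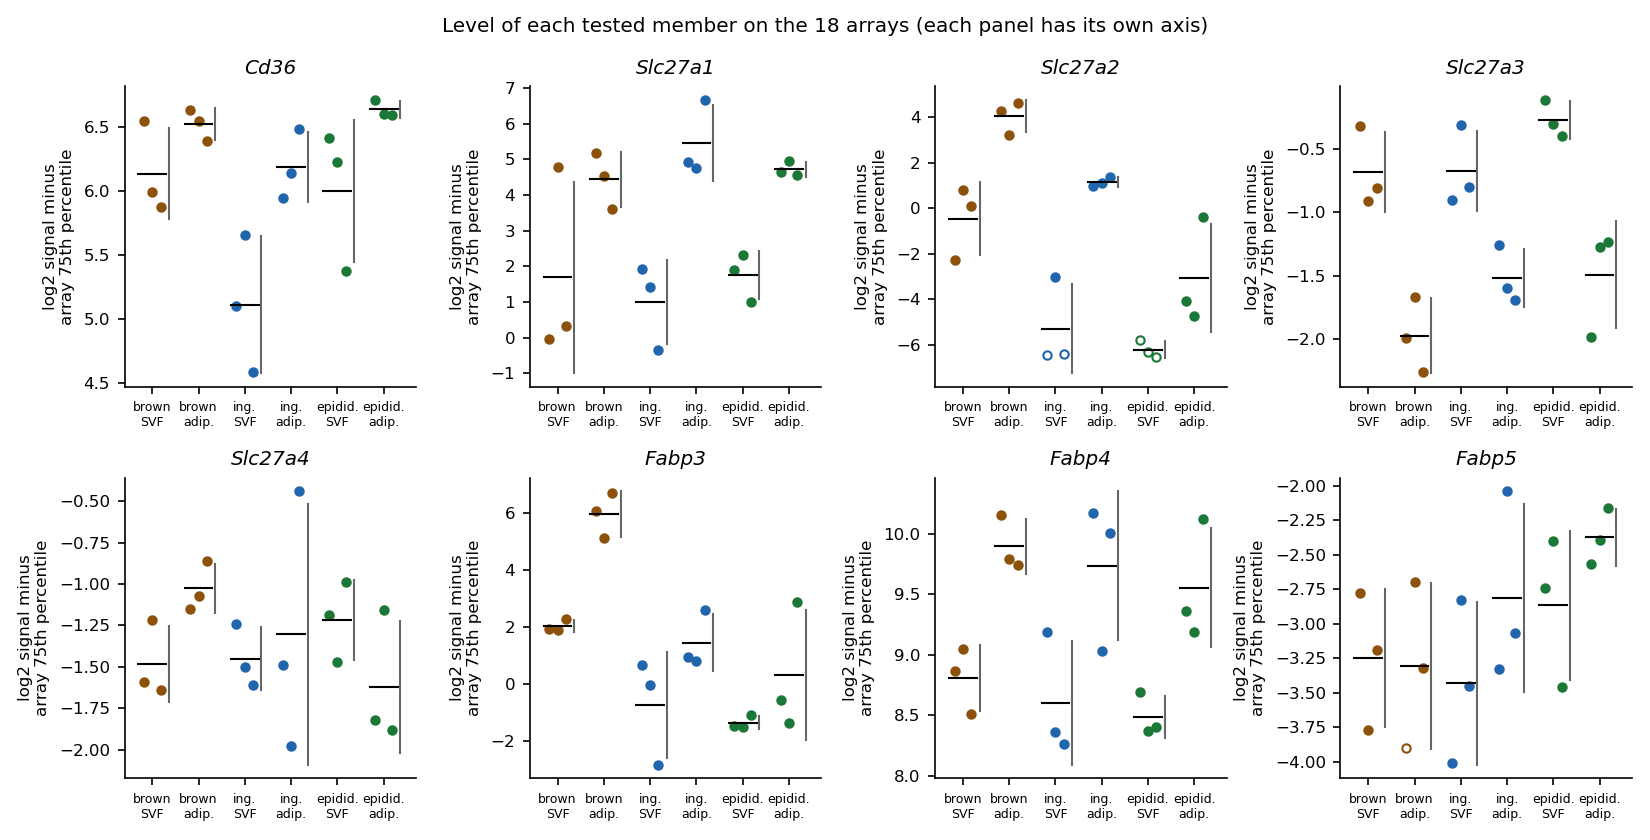
Level (log2 signal minus the array's 75th percentile) of the 8 tested members in the 6 groups, 1 point per array, open where the signal was not well above background; horizontal lines are means and vertical grey lines ± SD of 3 arrays. Slc27a2 ranged from -6.51 to 4.62 and Fabp3 from -2.84 to 6.72, while Slc27a4 stayed between -1.98 and -0.44.

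The first question is which of these genes separate adipocytes from the SVF. In brown fat 3 of the 8 tested members rose in adipocytes (Slc27a2, Fabp3 and Fabp4) and 1 fell (Slc27a3), while 12.7% of all genes rose and 8.35% fell, 21.1% together. In inguinal fat 4 rose (Cd36, Slc27a1, Slc27a2 and Fabp4) and Slc27a3 fell, while 9.16% of all genes rose and 4.81% fell, 14% together. In epididymal fat 3 rose (Slc27a1, Slc27a2 and Fabp4) and Slc27a3 fell, while 18.1% of all genes rose and 6.91% fell, 25% together. The median difference of the 8 members was 0.77, 1.10 and 0.85 in the 3 depots, beside 0.15, 0.01 and 0.07 for all genes. The Fabp4 call in brown fat was lost, with its sign turned, under quantile normalization (-0.03, adjusted p = 0.938) and in the authors' matrix (-0.04, adjusted p = 0.904).

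The second question is how the depots differ within a fraction. Between brown and inguinal adipocytes 1 of 8 passed, Fabp3, higher in brown (12.2% of all genes passed). Between brown and epididymal adipocytes 2 passed, Slc27a2 and Fabp3, both higher in brown (28.8%). Between inguinal and epididymal adipocytes Slc27a2 passed, higher in inguinal (7.7%). Among the SVFs Slc27a2 was higher in brown than in inguinal (2.38% of all genes passed) and epididymal fat (1.78%). No member passed between inguinal and epididymal SVF, where 0.297% of all genes did. Cd36 there had an unadjusted p of 0.0118 and passed after normexp background correction (-1.37, adjusted p = 0.0419). For no member did limma find a fraction difference that itself differed between depots: 0.859%, 2.02% and 0.0781% of all genes passed in the 3 interactions. The lowest adjusted p of a member in these interactions was 0.309 (Slc27a4, brown minus epididymal).

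**Figure D2:**
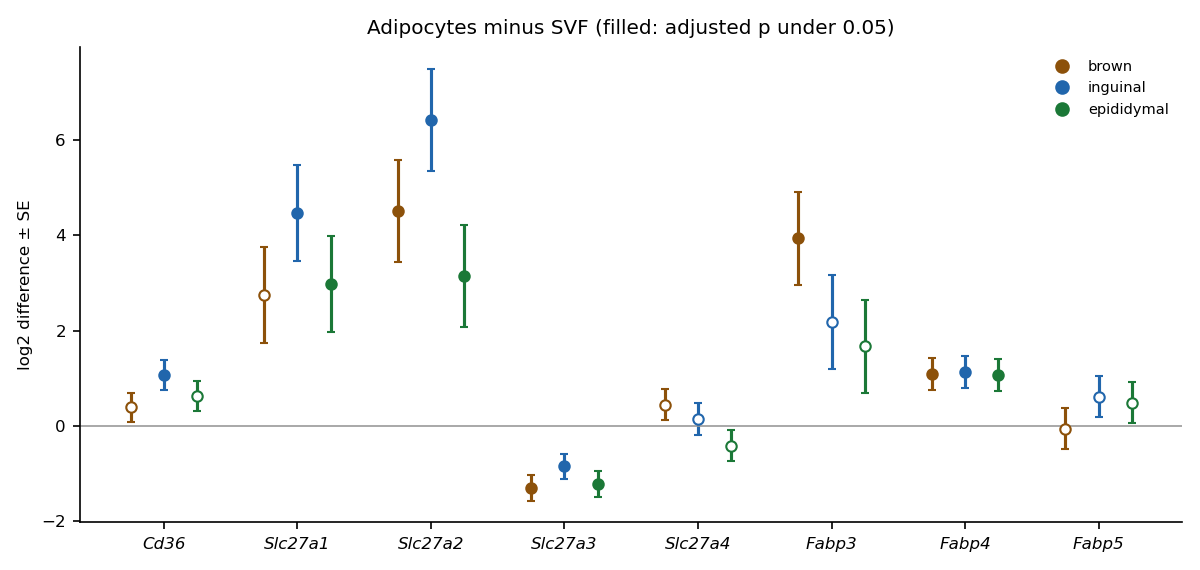
Adipocyte minus SVF difference (log2 ± SE, 3 arrays per group) of the 8 tested members in brown, inguinal and epididymal fat; filled points passed an adjusted p under 0.05. Slc27a2 lies at 4.51, 6.43 and 3.14, of which the inguinal and epididymal values are set against SVF arrays mostly or wholly not well above background, and Slc27a3 lies below 0 in all 3; the filled brown point of Fabp4 (1.09) became -0.03 under quantile normalization.

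Cd36 was bright in both fractions. In inguinal adipocytes its levels were 5.94, 6.14 and 6.48 and in inguinal SVF 5.10, 5.65 and 4.58. The groups did not overlap, and the difference was 1.07 ± 0.31 (adjusted p = 0.034), a 2.11-fold rise. In epididymal fat, where adipocytes were at 6.71, 6.60 and 6.59 and the SVF at 6.41, 6.22 and 5.37, the difference was 0.63 with a 95% interval from -0.03 to 1.30 (adjusted p = 0.151). In brown fat the samples overlapped, with 6.63, 6.54 and 6.39 in adipocytes and 6.54, 5.99 and 5.87 in the SVF, and the difference was 0.39 (95% interval -0.28 to 1.05, adjusted p = 0.43).

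The inguinal call for Cd36 rested on 1 of its 2 probes: the other, at chr5:17294606-17294665, gave 0.15 ± 0.28 (adjusted p = 0.752), and the mean of both gave 0.61 (adjusted p = 0.158). Under quantile normalization it was 0.70 (adjusted p = 0.233). The call was also lost without inguinal SVF replicate 1 (1.07, adjusted p = 0.0691) or 3 (0.81, adjusted p = 0.0933) and without inguinal adipocyte replicate 2 (1.10, adjusted p = 0.0564) or 3 (0.93, adjusted p = 0.137). Inguinal SVF replicate 3 held both the lowest Cd36 level of all arrays and the lowest mean of the 10 endothelial markers (2.64, against 3.56 and 3.49 in replicates 1 and 2). Its adipocyte marker mean was the lowest of all arrays as well (-0.82, against 0.48 and 1.7 in replicates 1 and 2). All 10 endothelial markers were well above background in every group, with means from 4.06 to 5.20 in brown SVF and from 3.15 to 4.24 over the adipocyte arrays. The part of endothelial cells and of adipocytes in the Cd36 levels was not tested. Between depots the widest Cd36 difference was 1.02 (brown above inguinal SVF, adjusted p = 0.102), which passed after normexp correction (1.56, adjusted p = 0.0219) and without inguinal SVF replicate 2 (1.29, adjusted p = 0.0395). Its probe at chr5:17294606-17294665 was higher in brown than in inguinal adipocytes (0.90 ± 0.28, adjusted p = 0.0466 over all probes).

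Slc27a1 encodes FATP1, the transport protein of fat and muscle that responds to insulin. In inguinal adipocytes its levels were 4.93, 4.77 and 6.68, in inguinal SVF 1.92, 1.41 and -0.34. All adipocyte samples lay above all SVF samples, and the rise was 4.47 ± 1.00 (22.1-fold, adjusted p = 0.00975). Without inguinal adipocyte replicate 3 it was 3.86 (adjusted p = 0.0577), and without inguinal SVF replicate 1 it was 4.93 (adjusted p = 0.0146). In epididymal fat adipocytes had 4.66, 4.96 and 4.56 and the SVF 1.91, 2.32 and 1.00, again without overlap, and the rise was 2.98 ± 1.00 (adjusted p = 0.0402). That call was lost without any 1 of the 6 epididymal libraries (2.61 to 3.27, adjusted p from 0.0704 to 0.126), without brown adipocyte replicate 2 (adjusted p = 0.0504) and with slide as a random block (2.97, adjusted p = 0.0613).

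In brown fat Slc27a1 showed the same high adipocyte levels, 5.17, 4.53 and 3.62, but its SVF samples were split, at -0.04, 4.79 and 0.32. The high one is brown SVF replicate 2, the SVF sample with the highest adipocyte marker mean (4.35, against 1.55 and 2.11). With it the difference was 2.75 ± 1.00 (adjusted p = 0.064), and without it 4.30 (adjusted p = 0.000827). The second Slc27a1 probe followed the first, with 2.59, 4.88 and 3.18 in brown, inguinal and epididymal fat. Slc27a1 did not separate the depots: its differences between adipocyte groups ran from -1.02 to 0.74, each ± 1.00, with adjusted p from 0.547 to 0.851.

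Slc27a2 encodes FATP2, a very long-chain acyl-CoA synthetase best known from liver and kidney, and was the member with the widest range. Brown adipocytes were at 4.29, 3.24 and 4.62 and brown SVF at -2.27, 0.79 and 0.09. The samples did not overlap, and the rise was 4.51 ± 1.07 (22.8-fold, adjusted p = 0.00757). Within the slide that held 2 arrays of each group the difference was 4.50, and within the slide that held 1 of each it was 4.53. Leaving out any 1 of the 18 arrays kept this call, with values from 3.61 to 5.14.

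Inguinal adipocytes were close together in Slc27a2, at 0.97, 1.12 and 1.37. Of the inguinal SVF samples only replicate 2 was well above background (-3.02), and the others read -6.42 and -6.40. The fitted rise was 6.43 ± 1.07 (adjusted p = 0.00197), and 2.46 (adjusted p = 0.128) after normexp background correction, so its size depends on how dim signal is treated. Without inguinal SVF replicate 1 the call was kept (adjusted p = 0.0088). In the authors' matrix it was 4.12. Epididymal SVF had no array well above background in Slc27a2 (-5.77, -6.32 and -6.51), while the adipocytes had -4.08, -4.74 and -0.36. The fitted rise was 3.14 ± 1.07 (adjusted p = 0.0442). Measured against the lowest signal that counts as well above background on each SVF array, adipocytes were 5.86-fold higher. That value is no secured bound, since normexp correction gave a log2 difference of 1.44.

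The epididymal rise of Slc27a2 leaned on replicate 3, the adipocyte sample with high brown adipocyte markers: without it the difference was 1.79 (adjusted p = 0.208). The call was also lost without any 1 of 10 other libraries (brown SVF 3, the 3 brown adipocyte samples, inguinal adipocytes 1 and 2, the 3 epididymal SVF samples and epididymal adipocytes 1, adjusted p from 0.0513 to 0.112). It was lost as well with the slide as a random block (3.24, adjusted p = 0.0778), after normexp correction (1.44, adjusted p = 0.247) and in the authors' matrix (1.13, adjusted p = 0.223). A second Slc27a2 probe, at chr2:126256120-126256179, did not show replicate 3 apart, with -4.72, -5.07 and -5.11, the last not well above background. That probe was well above background on all 3 arrays of brown adipocytes and of no other group, so it was kept through the group where it is high and its values are only a description. It gave 3.56 ± 0.63 between the brown fractions. Adipocytes were 1.85-fold higher in inguinal and 1.57-fold in epididymal fat than the lowest signal well above background on each SVF array. In both depots only 2 of 3 adipocyte arrays were well above background, so these values are no secured bounds. A further probe, at chr2:126212795-126212854, is placed on the opposite strand and was well above background on 1 of 18 arrays.

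Across groups the mean Slc27a2 level fell in the order brown adipocytes (4.05), inguinal adipocytes (1.15), brown SVF (-0.46), epididymal adipocytes (-3.06), inguinal SVF (-5.28) and epididymal SVF (-6.20). Brown adipocytes exceeded epididymal adipocytes by 7.11 ± 1.07 (138-fold, adjusted p = 0.000494), a call kept without any 1 array (6.27 to 8.46). By the second probe the means of these groups were -1.2 and -4.97, a smaller difference, so the size depends on the probe. By the probe used for the gene, brown and inguinal adipocytes did not overlap. Yet the difference of 2.90 ± 1.07 missed the threshold (95% interval 0.60 to 5.19, adjusted p = 0.0905). It passed without epididymal adipocyte replicate 3 (2.90, adjusted p = 0.0425). Inguinal exceeded epididymal adipocytes by 4.21 ± 1.07 (adjusted p = 0.0308), while the second probe, well above background on 2 arrays of each, gave 0.83 and the mean of both 2.52. This call was lost without inguinal adipocyte replicate 1 or 2 (4.30 and 4.23, adjusted p = 0.0922 and 0.0726), without epididymal adipocyte replicate 1 or 2 (3.71 and 3.37, adjusted p = 0.158 and 0.0675) and with slide as a random block (adjusted p = 0.0537). Inguinal adipocytes and brown SVF did not overlap, a difference that was not tested, and each neighbouring pair from brown SVF downward overlapped.

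In the SVF, too, Slc27a2 was highest in brown fat. Brown SVF exceeded epididymal SVF by 5.74 ± 1.07 (adjusted p = 0.00996) and inguinal SVF by 4.82 ± 1.07 (adjusted p = 0.0286). Over the lowest signal well above background on each epididymal SVF array, brown SVF was 35.5-fold higher. Epididymal SVF had no array well above background and inguinal SVF 1 of 3. The fitted sizes of both differences therefore rest on background readings and are no bounds. The 35.5-fold value is no secured bound either, since normexp correction gave a log2 difference of 3.27. Both calls were lost without brown SVF replicate 2, the sample rich in adipocyte markers (adjusted p = 0.0577 against epididymal and 0.0997 against inguinal SVF), and without brown SVF replicate 3 (adjusted p = 0.053 and 0.106). They were also lost with slide as a fixed block (adjusted p = 0.0764 and 0.056) and after normexp correction (adjusted p = 0.0663 and 0.225), and kept in the authors' matrix (adjusted p = 0.023 and 0.0333). The inguinal comparison also missed the threshold without inguinal SVF replicate 1 or 3 (adjusted p = 0.0703 and 0.101). The brown adipocyte marker mean ran from -0.23 to 1.94 in brown SVF and from -5.26 to -2.57 over the other SVF arrays, and its part in the Slc27a2 difference was not tested.

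Slc27a3, which encodes FATP3, an acyl-CoA synthetase not known as a fatty acid transporter, was the member that ran the other way. Brown adipocytes had -1.99, -1.67 and -2.26 and brown SVF -0.32, -0.91 and -0.81. It fell by 1.30 ± 0.27 in brown adipocytes (2.45-fold, adjusted p = 0.00336). In epididymal fat the levels were -1.98, -1.27 and -1.23 in adipocytes and -0.11, -0.30 and -0.40 in the SVF, and it fell by 1.22 ± 0.27 (adjusted p = 0.00554). Neither comparison had overlapping samples, and both calls held without any 1 array, while normexp correction gave -0.92 (adjusted p = 0.0587) and -0.96 (adjusted p = 0.0514). In inguinal fat adipocytes at -1.26, -1.60 and -1.69 lay below SVF at -0.90, -0.31 and -0.80, a fall of 0.85 ± 0.27 at the edge of the threshold (adjusted p = 0.0489). That call was lost without any 1 of 16 libraries, all but brown SVF replicate 1 and epididymal adipocyte replicate 1 (-0.98 to -0.67, adjusted p from 0.051 to 0.165). No Slc27a3 difference between depots passed, with values from -0.48 to -0.01. The mean of the 7 progenitor markers ran from 4.38 to 5.76 over the SVF arrays and from 0.03 to 3.63 over the adipocyte arrays, and its part in the fall of Slc27a3 was not tested.

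Slc27a4, which encodes FATP4, a broadly expressed acyl-CoA synthetase known from gut and skin, showed no passing difference. All 18 arrays lay between -1.98 and -0.44. The adipocyte minus SVF difference was 0.45 in brown fat, where the samples did not overlap (95% interval -0.25 to 1.16, adjusted p = 0.377), 0.15 in inguinal (-0.56 to 0.85) and -0.41 in epididymal fat (-1.11 to 0.30). A dimmer second probe gave 0.22, 0.22 and 0.20, so the epididymal value is negative by 1 of the 2 probes. Its intervals leave room for changes of up to about the size seen for Fabp4.

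Slc27a5, which encodes FATP5, the bile acid-CoA ligase of liver, could not be tested. Its single probe at chr7:11888754-11888813 was well above background on 6 of 18 arrays and on all 3 of no group. The levels ran from -6.70 to -2.72, the highest in inguinal SVF replicate 2. That sample also had the highest SVF level of Alb, the only 1 of 5 hepatocyte markers that could be tested (2.09), whose part in this was not tested. Inguinal adipocyte replicate 3 had a higher Alb level (2.25), with Slc27a5 at -4.44. The skeletal muscle marker mean was also highest in inguinal SVF replicate 2 (0.84).

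**Figure D3:**
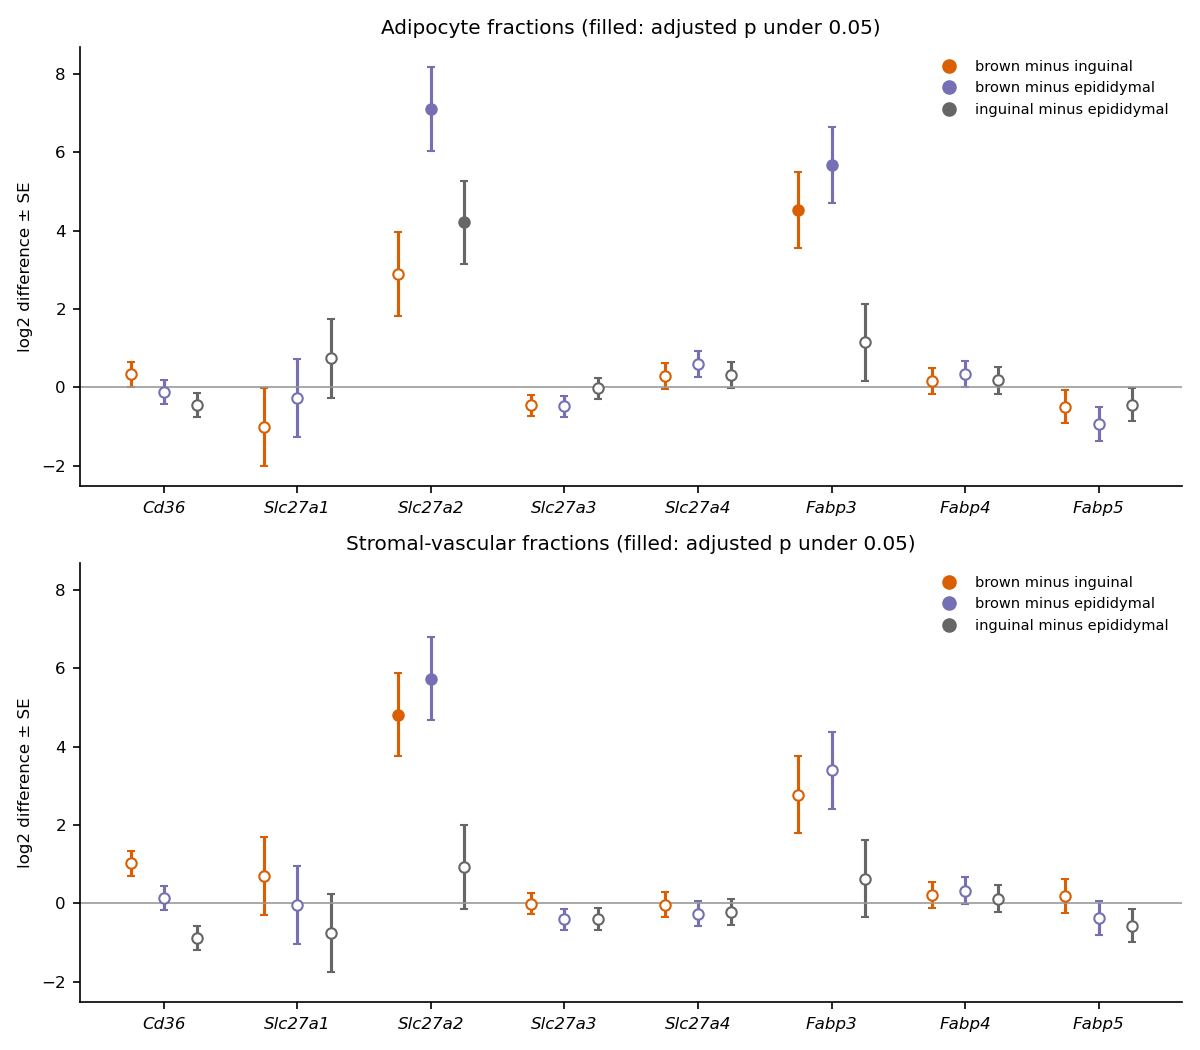
Differences between depots (log2 ± SE, 3 arrays per group) of the 8 tested members, in adipocytes (top) and SVF (bottom); filled points passed an adjusted p under 0.05. Only Slc27a2 and Fabp3 have filled points, up to 7.11 for Slc27a2 and 5.68 for Fabp3 between brown and epididymal adipocytes.

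Fabp3 was highest in brown adipocytes. Brown adipocytes were at 6.10, 5.13 and 6.72 and brown SVF at 1.92, 1.91 and 2.28. There was no overlap, and the rise was 3.94 ± 0.98 (15.4-fold, adjusted p = 0.00948). Within slides it was 3.70 (2 arrays of each group) and 4.44 (1 of each), and without any 1 array it stayed between 3.57 and 4.37 and past the threshold. In inguinal fat adipocytes had 0.95, 0.80 and 2.61 and the SVF 0.67, -0.02 and -2.84, a difference of 2.18 ± 0.98 (95% interval 0.11 to 4.26, adjusted p = 0.148). It passed without inguinal SVF replicate 1 and epididymal adipocyte replicate 3 (2.88, adjusted p = 0.0291), and without brown SVF replicate 2 as well (adjusted p = 0.0373). In epididymal fat adipocytes had -0.58, -1.39 and 2.90 and the SVF -1.47, -1.52 and -1.10, which overlap at the edge (1.67 ± 0.98, adjusted p = 0.226). The high epididymal value is again adipocyte replicate 3.

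Every brown adipocyte sample lay above every white adipocyte sample in Fabp3, by 4.53 ± 0.98 on average over inguinal (adjusted p = 0.00924) and 5.68 ± 0.98 over epididymal adipocytes (adjusted p = 0.00114). Leaving out epididymal adipocyte replicate 3 moved the brown minus epididymal difference in Fabp3 from 5.68 to 6.97. In the order of mean levels the groups after brown adipocytes (5.98) were brown SVF (2.04), inguinal adipocytes (1.45), epididymal adipocytes (0.31), inguinal SVF (-0.73) and epididymal SVF (-1.36), and each neighbouring pair among these overlapped. Brown SVF exceeded epididymal SVF by 3.40 (adjusted p = 0.113) and inguinal SVF by 2.77 (adjusted p = 0.159), without overlap in either. The first difference passed without inguinal SVF replicate 3 (adjusted p = 0.0474) or epididymal adipocyte replicate 3 (adjusted p = 0.0306), with the compared groups alone (adjusted p = 0.00177), and without all 3 libraries that stand apart (3.47, adjusted p = 0.0412). Without inguinal SVF replicate 1 and epididymal adipocyte replicate 3 both passed, at 3.40 (adjusted p = 0.0125) and 3.47 (adjusted p = 0.0306).

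Since Fabp3 is also a muscle gene, the 8 skeletal muscle markers are given beside it. Their mean ran from -2.99 to -0.86 in brown adipocytes and from -1.96 to -0.58 in brown SVF. It ran from -1.37 to -1.23 in inguinal adipocytes and from -3.80 to 0.84 in inguinal SVF, and was lower in epididymal fat, from -3.60 to -2.92 in adipocytes and from -4.31 to -3.91 in the SVF. Its part in the Fabp3 differences was not tested.

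Fabp4, the major cytosolic binding protein of adipocytes, was the brightest or among the 8 brightest of 41174 probes on every array, SVF included. Its levels were 10.16, 9.79 and 9.74 in brown adipocytes against 8.87, 9.05 and 8.51 in brown SVF, without overlap. In inguinal fat they were 10.17, 9.03 and 10.01 against 9.19, 8.36 and 8.26, with overlap, and in epididymal fat 9.36, 9.19 and 10.12 against 8.69, 8.37 and 8.40, without. The rises were 1.09, 1.13 and 1.07, each ± 0.34, or 2.12-, 2.19- and 2.10-fold (adjusted p = 0.035, 0.0405 and 0.0335). Without inguinal SVF replicate 1 the inguinal rise was 1.42 (adjusted p = 0.0225). But in brown fat the sign turned under quantile normalization and in the authors' matrix, as given above. In inguinal and epididymal fat quantile normalization gave 0.55 and 0.22 (adjusted p = 0.0529 and 0.37) and the matrix 0.43 and 0.11 (adjusted p = 0.11 and 0.65). Quantile normalization gives every array the same set of values, so a probe's value follows its rank, here 1 to 8. The part of this in the changed values was not tested. The calls were also lost without brown SVF replicate 1 or 3 or any brown adipocyte array in brown fat (0.94 to 1.16, adjusted p up to 0.137), without brown SVF replicate 1, brown adipocyte replicate 1 or 2, inguinal SVF replicate 2 or 3, inguinal adipocyte replicate 1 or 3 or epididymal SVF replicate 1 or 2 in inguinal fat (0.92 to 1.13, adjusted p up to 0.153) and without epididymal SVF replicate 2 or 3 or epididymal adipocyte replicate 1 or 3 in epididymal fat (0.79 to 1.17, adjusted p up to 0.145).

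The other Fabp4 probes, which are less close to the top, are given under the percentile scaling of the main fit only. They therefore cannot show what part rank had in the values under quantile normalization. The second probe shown above ranked between 36 and 1497 over the arrays. It rose by 2.08 ± 0.41 in inguinal (adjusted p = 0.00468) and 1.86 ± 0.41 in epididymal adipocytes (adjusted p = 0.00585), without overlap, and gave 0.93 ± 0.41 in brown fat (adjusted p = 0.136). The remaining probe, at chr3:10186983-10187043, ranked between 3 and 22 and gave 0.98, 1.03 and 0.89, each ± 0.40 (adjusted p = 0.106, 0.096 and 0.123). Under this scaling all 9 probe and depot combinations were positive, and the second probe was the only one whose white fat differences exceeded 1.13. Between depots no Fabp4 difference passed: in adipocytes they ran from 0.16 to 0.34 by the first probe, and the second probe gave -0.92 ± 0.41 between brown and epididymal adipocytes (adjusted p = 0.109).

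**Figure D4:**
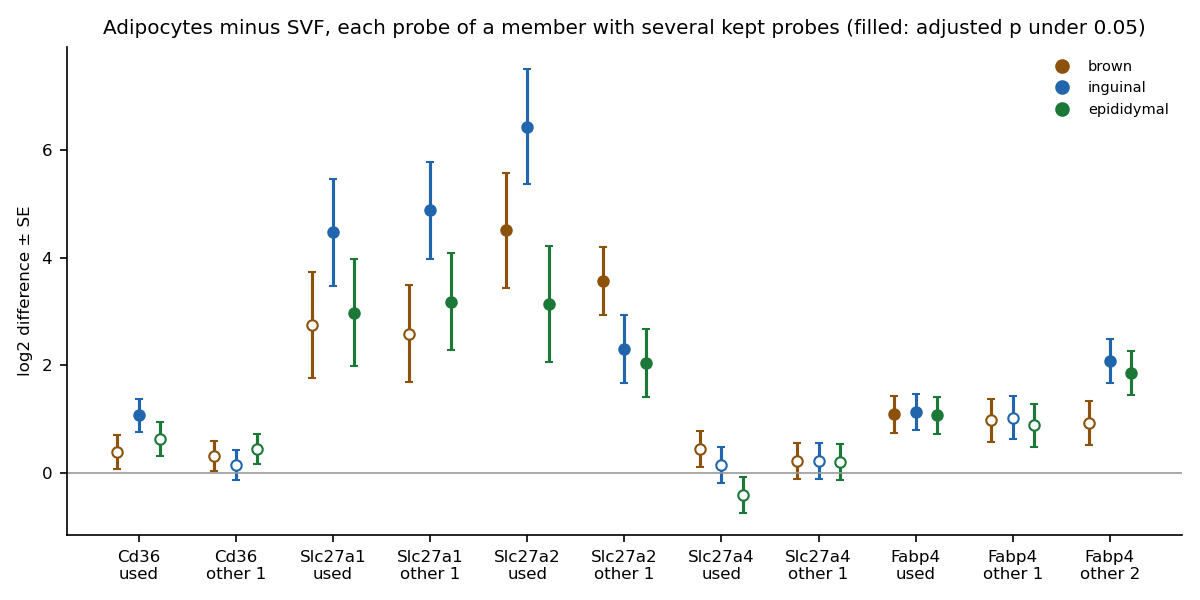
Adipocyte minus SVF difference (log2 ± SE, 3 arrays per group) of each kept probe of the 5 members with several kept probes; "used" is the probe that stands for the gene, and filled points passed an adjusted p under 0.05 over all probes. The probes of Slc27a1 give like values, while those of Cd36 (1.07 and 0.15 in inguinal fat) and Fabp4 (1.13 and 2.08) differ; the white fat points of Slc27a2 are fitted against SVF arrays mostly or wholly not well above background.

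Fabp5 was dim, with levels from -4.01 to -2.04, and well above background on 17 of 18 arrays. The adipocyte minus SVF difference was -0.06 in brown (95% interval -0.97 to 0.85), 0.61 in inguinal (-0.29 to 1.52) and 0.49 in epididymal fat (-0.42 to 1.40). Brown adipocytes, at -3.90, -2.70 and -3.32, lay below epididymal adipocytes, at -2.57, -2.39 and -2.16, but the difference of -0.93 ± 0.43 did not pass (adjusted p = 0.111). A single probe stands for Fabp5, so little RNA and a weak probe cannot be told apart. The 10 macrophage markers had means from 1.38 to 3.45 in the SVFs and from -1.95 to 2.42 in the adipocyte fractions.

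Isoforms of a family were then contrasted directly, by the log2 difference of 2 members within each array. There are 9 pairs among the tested Fabp and Slc27a genes, and pairs that share a member are not independent. Each was tested for fraction (fraction labels permuted within depot, 8000 arrangements) and for brown against the 2 white depots (depot labels permuted within fraction, 7056 arrangements), with exact two-sided permutation tests and Benjamini-Hochberg adjustment over the 18 tests. Slc27a2 was not well above background on 5 SVF arrays, so the sizes of its contrasts rest in part on background readings.

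For fraction, 7 of 9 pairs passed. Pairs of other genes were not tested, so no share over all pairs stands beside this count or the one for brown against white. Of single genes 21.1%, 14% and 25% passed between fractions in brown, inguinal and epididymal fat in limma. Slc27a1 and Slc27a2 rose relative to Slc27a3 by 4.52 and 5.82 and relative to Slc27a4 by 3.33 and 4.63 (adjusted p = 0.000563, 0.000563, 0.0015 and 0.000563, exact permutation). Slc27a3 fell relative to Slc27a4 by 1.19 (adjusted p = 0.0018, exact permutation). An unadjusted p of 0.00025 is the smallest that these arrangements can give. Slc27a1 minus Slc27a2 differed by -1.29, which did not pass (adjusted p = 0.133, exact permutation). On the arrays, Slc27a1 minus Slc27a3, centred on its mean over the 18 arrays, lay between 1.51 and 4.10 on every adipocyte array and between -4.00 and -1.46 on every SVF array but brown SVF replicate 2, at 1.43.

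Among the binding proteins, Fabp3 rose in adipocytes relative to Fabp5 by 2.25 (adjusted p = 0.0176, exact permutation) and relative to Fabp4 by 1.50 (adjusted p = 0.0263, exact permutation). Its gain over Fabp4 was 2.86 in brown fat, 1.05 in inguinal fat and 0.60 in the epididymal depot. It missed the threshold without inguinal SVF replicate 3 (1.21, adjusted p = 0.0517, exact permutation) or epididymal adipocyte replicate 3 (1.17, adjusted p = 0.0589, exact permutation). Fabp4 minus Fabp5 differed by 0.75 (adjusted p = 0.0914, exact permutation), and passed without inguinal SVF replicate 1 (0.94, adjusted p = 0.0415, exact permutation).

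For brown against white, 5 of 9 pairs passed, and these 5 are all the pairs that hold Slc27a2 or Fabp3. They therefore restate the depot differences of these genes rather than add separate ones. Slc27a2 was higher in brown fat relative to Slc27a1 by 5.30, to Slc27a3 by 5.48 and to Slc27a4 by 4.99, and Fabp3 relative to Fabp4 by 3.84 and to Fabp5 by 4.50. Each of these has a p of 0.000142 (exact permutation, adjusted 0.00051), the smallest the arrangements can give. Slc27a2 minus Slc27a1 differed by 5.65 in adipocytes and 4.95 in the SVF, and Fabp3 minus Fabp4 by 4.85 and 2.82. These 5 calls were kept under every setting run for them. Slc27a1 minus Slc27a4 passed as well without brown SVF replicate 2 (-1.02, adjusted p = 0.0263, exact permutation). Centred on its mean, Fabp3 minus Fabp4 lay between 3.24 and 4.88 in brown adipocytes and between 0.76 and 1.67 in brown SVF, and on the 12 white fat arrays between -3.20 and 0.68. The highest white value was epididymal adipocyte replicate 3.

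**Figure D5:**
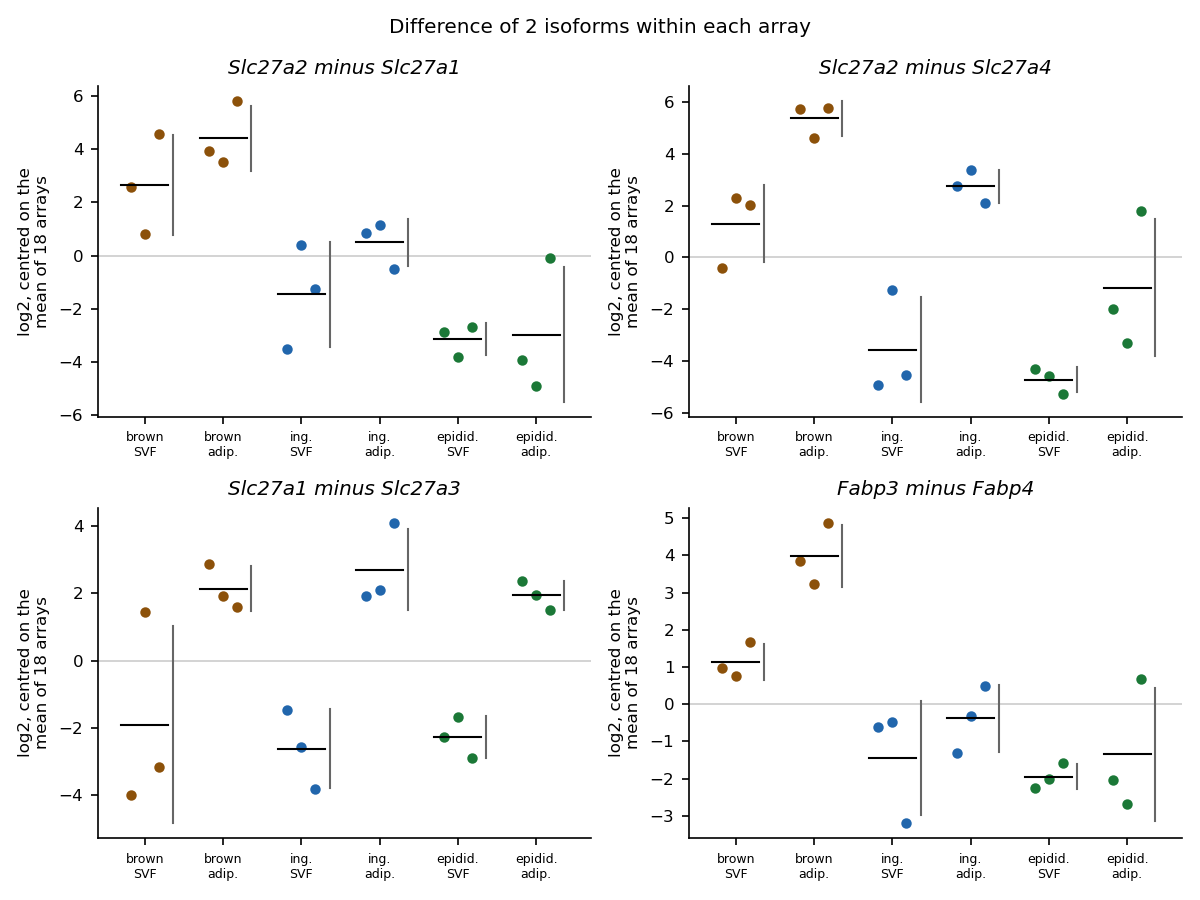
Log2 difference of 2 isoforms within each array, centred on its mean over the 18 arrays, in the 6 groups; points are arrays, horizontal lines means and vertical grey lines ± SD of 3 arrays. Slc27a2 minus Slc27a1 is highest in brown fat (0.81 to 5.81, against at most 1.16 elsewhere), while Slc27a1 minus Slc27a3 separates fractions apart from brown SVF replicate 2.

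The genes whose levels followed a member most closely over the 18 arrays are given as a description, since group, depth and cell makeup are shared by all points. Slc27a2 was most like the respiratory chain genes Cox8b (Pearson r = 0.979) and Cox7a1 (0.966) and the mitochondrial carnitine transferase gene Cpt1b (0.967). Fabp3 was most like Cpn2 (0.949), S100b (0.943) and Cpt1b (0.938). Slc27a2 and Fabp3 correlated with each other at 0.90. Slc27a1 was most like Arxes2 (0.979), the amino acid transporter gene Slc7a10 (0.978) and Nxnl1 (0.974), Cd36 most like Palmd (0.964), the aquaglyceroporin gene Aqp7 (0.953) and Dynlt3 (0.917), and Slc27a3 most like Tagln2 (0.945), Tmem165 (0.930) and Mxra8 (0.926). Fabp4 was most like Atp5g3 (0.933), the ferritin gene Fth1 (0.931) and Selenop (0.928). Cox8b is also 1 of the 5 brown adipocyte markers. The closest genes of Slc27a4 (Nlrx1, 0.832) and Fabp5 (Fam217a, 0.801) were less close.

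Slc27a2 and Fabp3 moved together over the groups, so their promoters are shown, as the 250 bases before the RefSeq start site (GRCm38.p6, plus strand, chr2:126552774-126553023 for Slc27a2 and chr4:130308488-130308737 for Fabp3). Capitals mark AGGTCA, the nuclear receptor half-site, on either strand.
Slc27a2: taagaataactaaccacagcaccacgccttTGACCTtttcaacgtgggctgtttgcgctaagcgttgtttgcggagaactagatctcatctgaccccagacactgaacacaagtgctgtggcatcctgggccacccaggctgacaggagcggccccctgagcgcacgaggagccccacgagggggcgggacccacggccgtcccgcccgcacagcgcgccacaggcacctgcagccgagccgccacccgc
Fabp3: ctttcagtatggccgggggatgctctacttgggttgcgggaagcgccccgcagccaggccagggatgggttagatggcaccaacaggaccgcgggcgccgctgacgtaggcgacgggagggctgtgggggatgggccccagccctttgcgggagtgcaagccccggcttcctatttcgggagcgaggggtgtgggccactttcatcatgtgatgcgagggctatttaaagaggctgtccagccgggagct

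The motif starts at position -220 of Slc27a2, on the minus strand, and its letters are not in the Fabp3 window. With 50 bases after the start included, 16.3% of 32851 promoter windows of 300 bases hold AGGTCA, and 2 of the 8 windows of the 6 members in the table do, those of Cd36 and Slc27a2. The direct repeat AGGTCANAGGTCA, searched on both strands and holding the shorter motif, is in 0.0396% of windows and in no member window.

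Other genes that handle fatty acids were followed through lists chosen with earlier results of these data known, and the calls of each are to be read against the share of all genes called. Of 7 genes for the fate of fatty acids, 6 rose and 1 fell in adipocytes of each depot, with a median of 2.83 in brown fat, 3.28 in inguinal fat and 2.10 in the epididymal depot (0.15, 0.01 and 0.07 for all genes). In inguinal fat the acyltransferase genes Dgat2 (5.58), Agpat2 (4.04) and Dgat1 (3.28) and the muscle-type carnitine transferase gene Cpt1b (4.28) rose most. The gene that fell was Cpt1a, named after its values were seen, by 0.96, 1.22 and 1.01 in brown, inguinal and epididymal fat.

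Of the acyl-CoA binding list 6 of 7 genes could be tested, and 5 rose in brown, 3 in inguinal and 3 in epididymal adipocytes, with medians of 1.18, 0.98 and 0.93. Dbi, the acyl-CoA binding protein, rose by 2.49, 2.88 and 2.34 and Scp2, a lipid transfer protein, by 1.80, 3.27 and 2.41. Of the other acyl-CoA synthetases 5 of 8 could be tested. Acsl1, the main long-chain synthetase of adipocytes, rose in all 3 depots (2.86, 4.81 and 3.12), and Acsbg1 fell in brown and epididymal adipocytes (-2.32 and -1.58). The list medians of 0.19, -0.03 and 0.27 were near those of all genes.

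The remaining lists are to be read beside the 12.7%, 9.16% and 18.1% of all genes that rose in brown, inguinal and epididymal adipocytes. Of 8 membrane partners of uptake 1 rose in brown fat, 2 in inguinal and 1 in epididymal fat, and Got2 fell in inguinal fat (-0.87). The fatty acid receptor gene Ffar4 rose in each depot (3.19, 4.14 and 3.76). Of 9 genes that supply fatty acids from the blood 4, 3 and 2 rose, among them lipoprotein lipase (Lpl: 1.23, 2.29 and 1.56) and Vegfb (1.83, 2.37 and 2.60). Of 5 regulators the nuclear receptor gene Ppara rose in each depot (3.69, 4.04 and 2.43), and Pparg in inguinal fat (1.65 ± 0.47, adjusted p = 0.0322). Of 7 other FABP genes 4 could be tested. Fabp12 rose in inguinal and epididymal adipocytes (1.09 and 1.53) and Fabp2 in epididymal adipocytes (1.95).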

How the data were processed

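RNA of 18 samples was hybridised to single-colour Agilent mouse arrays, and per the file headers the deposited intensity values are Feature Extraction's processed signals (versions 9.5 and 10.5), background-subtracted by that software. The deposited series matrix holds log2 values of 31161 non-control probes, with column medians of 8.12 to 8.13. Its normalization is not given in the sources used here. Each of its 18 columns matched an array of its own group best (r of at least 0.992), but only 4 matched the array of the same replicate number.

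Spots of a probe were averaged after control spots and outlier flags were left out (43379 spots, 41174 probes), and log2 of the 75th percentile of each array was subtracted. Kept were 28595 probes whose spots stood well above background in every replicate of some group, and the brightest kept probe stood for a gene. Symbols were updated through RefSeq accessions for 24375 probes, by symbol or synonym for 6301 and 2426, and 8072 kept the array's name. limma 3.58.1 in R 4.3.3 fitted 6 group means (12 residual degrees of freedom, prior 2.98) for 12 comparisons, and the step was tested on simulated data. Alternatives were the probe filter, normexp correction (offset 50, on median spot signals, since mean signals were not used here), quantile normalization, the matrix, probe means, the compared groups alone, slide and scan day as blocks, a replicate block and left-out libraries. Slide was a fixed block where a slide held both groups and otherwise a random one (consensus correlation 0.208, scan day 0.198). Replicate numbers are in the labels. Deviations of same-numbered samples correlated above 0.1 in every pair for the epididymal fraction comparison (0.42, 0.48 and 0.14) and for no other comparison. There the numbers may mark pairs, and for the other comparisons these correlations cannot decide it. The main fit was unpaired in every comparison, the epididymal one included, and replicate entered only as the replicate block. The number of arrays limits the precision.

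The members, the marker lists and the pathway lists were chosen with earlier results of these data known. Named were all members, up to 4 called genes a list with the largest difference, and the 3 genes most correlated with each member. Of the marker lists not used beside a result, the means over the arrays ran from -3.50 to -1.64 for keratinocyte, 2.66 to 6.08 for erythroid (2 of 3 genes tested) and -7.39 to -0.89 for epididymal epithelium (1 of 4 tested). Probe coordinates are mm8 as in the array files, and promoters are RefSeq's on GRCm38.p6.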

Additional observations from a re-analysis of the deposited data

How the results depend on the processing

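Of 408 counts over 14 count results and 30 settings, 339 stayed within 1.5 times the reported value and 69 moved. The members that passed between fractions numbered 4 in brown fat, 5 in inguinal fat and 4 in the epididymal depot. These became 2, 1 and 0 with normexp. In inguinal fat the count was 2 with no filter, with quantile normalization, in the matrix and with the compared groups alone, and 3 with probe means, slide or scan day as a block. In epididymal fat it was 2 with quantile normalization, in the matrix and without the 3 libraries that stand apart (brown SVF replicate 2, inguinal SVF replicate 1 and epididymal adipocyte replicate 3, a setting chosen after seeing the data), and 1 with slide as a block or without the last 2 of these. Between brown and inguinal adipocytes 1 became 2 with normexp, in the matrix, with probe means, with the compared groups alone and without those 2 or 3 libraries. With only probes well above background on all 18 arrays Slc27a2 was not tested, which leaves 1 between brown and epididymal adipocytes and 0 between inguinal and epididymal adipocytes and in both brown SVF comparisons. Between inguinal and epididymal adipocytes the count was also 0 with normexp, the compared groups alone, slide or scan day. Brown against inguinal SVF gave 0 with the compared groups alone, slide or without 3 libraries, and 2 without 2 libraries. Brown against epididymal SVF gave 0 with normexp or slide, and 2 with the compared groups alone or without 2 or 3 libraries. Inguinal against epididymal SVF gave 1 with normexp. The causes were not tested.

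Leaving out 1 array at a time gave 3 to 5, 1 to 5 and 1 to 4 members between fractions in brown, inguinal and epididymal fat. It gave 1 to 2, 2 to 2 and 0 to 1 between brown and inguinal, brown and epididymal, and inguinal and epididymal adipocytes. The SVF counts were 0 to 2, 0 to 2 and 0 to 0 in the same order, 0 to 0 in the interactions, 6 to 8 for isoform pairs by fraction and 5 to 6 for brown against white. With the replicate block the counts of members between fractions were 4, 4 and 4, and the 1 call it changed was Slc27a3 in inguinal fat (-0.85, adjusted p = 0.053). Deviations of same-numbered samples correlated there at -0.14, 0.05 and -0.23, which cannot decide whether the numbers mark pairs. Of 3288 single values 2 reversed, both Fabp4 in brown fat (-0.03 with quantile normalization and -0.04 in the matrix), 128 lost and 29 gained a call, and 3129 kept theirs. The median of all genes in the brown fraction comparison was 0.15, and -0.03 with quantile normalization, -0.02 in the matrix, 0.31 with normexp and 0.50 with no filter, so each change is relative to that shift. Slc27a2 was well above background on 13 of 18 arrays and Fabp5 on 17, which limits their lowest values.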

Other observations

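Some listed genes also differed between depots within a fraction. Of 7 genes for the fate of fatty acids, only Cpt1b passed between brown and inguinal adipocytes. Against epididymal adipocytes Cpt1b and Cpt2 were higher in brown and Cpt1a was lower. Of 5 regulators, Ppara was higher in brown than in both white groups, and Ppargc1a only than in epididymal adipocytes. Of all genes 12.2% and 28.8% passed in these 2 comparisons. Cpt1b, the muscle-type carnitine transferase gene, exceeded its inguinal adipocyte level by 2.64 ± 0.73 in brown adipocytes (adjusted p = 0.0291 in limma) and its epididymal one by 4.91 ± 0.73 (adjusted p = 0.000433), and Ppara by 3.10 ± 0.59 and 4.21 ± 0.59 (adjusted p = 0.00498 and 0.000316). Without inguinal SVF replicate 1 and epididymal adipocyte replicate 3, a choice made after the values were seen, the epididymal differences were 5.98 and 4.57 (adjusted p = 6.53e-05 and 0.000667). The brown adipocyte marker mean ran from 4.47 to 4.90 in brown, from 1.89 to 3.24 in inguinal and from -1.87 to 2.27 in epididymal adipocytes, and its part in these differences was not tested. Flt1, a receptor of VEGF-B on endothelial cells, was higher in brown adipocytes by 1.47 ± 0.31 over inguinal ones (adjusted p = 0.00882) and by 1.26 ± 0.31 over epididymal ones (adjusted p = 0.00929). The mean of the 10 endothelial markers ran from 3.74 to 4.24 in brown, from 3.15 to 3.34 in inguinal and from 3.38 to 3.56 in epididymal adipocytes, and its part in the Flt1 differences was not tested. Acsl5 was higher in brown than in both kinds of white adipocytes (0.95 and 0.87), and Acsbg1 was lower in brown than in inguinal adipocytes (-3.35 ± 0.55, adjusted p = 0.00215).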
